A study of Mus musculus with 27 samples.

Results

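Pulmonary surfactant is made by type II cells of the alveolus, and 10 genes of this cell type were followed after irradiation of the thorax: Sftpa1, Sftpb, Sftpc, Sftpd, Abca3, Lamp3, Napsa, Lpcat1, Slc34a2 and Etv5. The genes were listed by name for their role in surfactant and type II cells. Each was read on its brightest probe set, the short DNA features that report 1 transcript, chosen by the mean over all arrays. Of the 10 genes 9 had a probe set of their own, among 18194 genes read in the same way. Lamp3, a lamellar body membrane protein, shares its only probe set with Ppid and was not analysed here. Lung RNA was measured on 27 Affymetrix arrays, 1 for each female mouse aged 10 to 12 weeks, from the inbred strains C57L/J, CBA/J and C57BL/6J. The 3 mice in each of 9 groups had the whole thorax exposed to 0 Gy (sham-irradiated), 12.5 Gy or 15 Gy. The X-rays, from a 320 kVp source, were given at 67 cGy per min with the head, forelimbs and abdomen behind shields. Lungs were taken 24 h later, well before the late disease that the labels assign to each strain: pneumonitis with fibrosis in C57L/J, pneumonitis alone in CBA/J, and fibrosis with mild pneumonitis in C57BL/6J. The labels name no transgene or deletion for any group, and RNA was not pooled. The study's methods state that all mice were housed alike and killed on 1 day and that the arrays were run as 1 batch. The CBA/J labels also carry a code, C1, C2 or C3, that goes with the replicate number at every dose and that neither the labels nor the methods explain.

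Surfactant is a film of phospholipid and protein that lowers surface tension in the alveolus. Type II cells assemble it in lamellar bodies, secrete it, and take much of it up again. The proteins SP-B and SP-C are small and hydrophobic and help to spread the film, whereas SP-A and SP-D are collectins of innate defence. Type II cells also serve as progenitors of the flat type I cells that carry out gas exchange, and they are a classical target of radiation in the lung.

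Values are log2 of the deposited intensity after a floor of 1, and a difference of 1 on this scale is a doubling of intensity. A gene was called changed at a Benjamini-Hochberg adjusted p under 0.05 over all 18194 genes in limma. Sftpc lay between 14.23 and 14.93 on all 27 arrays, close to the highest value of each. It was not taken as a measure of type II cell content. The dose labels were checked on Cdkn1a, the p53 target that encodes p21: it lay between 9.68 and 10.35 on the 9 sham arrays and between 12.73 and 13.59 on the 18 irradiated arrays. Thyroglobulin (Tg), the precursor of thyroid hormone, was above 10 on 3 irradiated arrays, where it reached 13.46 to 15.07, and at most 5.63 on the other 24. These were array 3 of C57L/J at 15 Gy, array 3 of CBA/J at 12.5 Gy and array 2 of C57BL/6J at 15 Gy. All 3 belonged to a set of 9 arrays on which the mean of 10 skeletal muscle genes stood 2.77 to 8.63 above the median array, against -0.58 to 0.49 on the other 18. Of the 10 muscle genes, 8 did not overlap between these sets of arrays. The 9 arrays were that 1 array of C57L/J, 2 of CBA/J at 0 Gy, 2 of CBA/J at 12.5 Gy, 2 of C57BL/6J at 12.5 Gy and 2 of C57BL/6J at 15 Gy. For some members, values are also given without these 9 arrays or without the 3 with high Tg. A value given with all arrays alone can still depend on them. For irradiated minus sham over strains, the plot of the 9 genes shows both settings. In whole lung, fewer type II cells and less RNA per cell cannot be told apart.

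The promoter sequences of members whose levels are described next are shown for their order of bases just before a start of the gene. RefSeq tables on the build GRCm38.p6 hold promoters for 6 of the 9 measured members, and the 250 bases before the start are printed 5′ to 3′ on the gene's strand. Capitals mark matches on either strand to CTCAAG, the core bound by NKX2-1, the master regulator of lung epithelium, or to TGTTTAC or TGTTTGC, bound by FOXA factors. Sftpa1 (chr14:41131538-41131787) and Sftpb (chr6:72304360-72304609) are the surfactant protein genes with an entry. Abca3 (chr17:24351773-24352022), Lpcat1 (chr13:73466981-73467230) and Slc34a2 (chr5:53049103-53049352) encode the lipid transporter, the lipid remodelling enzyme and the phosphate transporter. All 5 lie on the plus strand. The RefSeq gene record of Abca3 begins at position 24351921, so part of its window lies within the gene.
Sftpa1: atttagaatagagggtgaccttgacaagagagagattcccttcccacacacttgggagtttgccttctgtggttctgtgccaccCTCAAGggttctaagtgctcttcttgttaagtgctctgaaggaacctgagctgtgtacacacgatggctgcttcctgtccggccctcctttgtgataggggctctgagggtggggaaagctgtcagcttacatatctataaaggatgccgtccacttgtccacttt
Sftpb: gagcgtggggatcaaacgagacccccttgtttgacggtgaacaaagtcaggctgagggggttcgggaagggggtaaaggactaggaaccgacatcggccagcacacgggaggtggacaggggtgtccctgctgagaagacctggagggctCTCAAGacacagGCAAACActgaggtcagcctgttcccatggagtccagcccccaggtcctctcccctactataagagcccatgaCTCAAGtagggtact
Abca3: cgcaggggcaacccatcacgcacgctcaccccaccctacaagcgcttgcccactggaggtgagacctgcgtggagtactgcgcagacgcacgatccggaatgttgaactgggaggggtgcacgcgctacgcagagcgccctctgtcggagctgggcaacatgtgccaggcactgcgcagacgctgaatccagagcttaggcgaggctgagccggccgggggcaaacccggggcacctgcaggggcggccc
Lpcat1: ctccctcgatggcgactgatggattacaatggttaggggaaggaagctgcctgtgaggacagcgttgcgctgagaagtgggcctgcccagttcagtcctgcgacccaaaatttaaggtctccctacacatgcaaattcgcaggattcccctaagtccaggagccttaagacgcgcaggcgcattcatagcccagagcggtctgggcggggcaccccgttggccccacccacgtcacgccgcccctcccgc
Slc34a2: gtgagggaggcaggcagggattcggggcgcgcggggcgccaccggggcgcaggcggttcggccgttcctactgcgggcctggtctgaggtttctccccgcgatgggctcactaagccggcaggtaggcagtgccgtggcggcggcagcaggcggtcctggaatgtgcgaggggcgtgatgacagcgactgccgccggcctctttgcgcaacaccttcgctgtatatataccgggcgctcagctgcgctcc
Sftpa1 held 1 CTCAAG, which began 166 bases before the start. Sftpb held 2, at 100 and 15 bases, and a TGTTTGC on the minus strand at 88 bases. A TGTTTAC stood on the minus strand 183 bases before the first of 2 Etv5 starts. None of these matches overlapped another. These letters are not in the windows of Abca3, Lpcat1 and Slc34a2. Among 32851 promoter windows of the same length, 13.3% held CTCAAG, 7.29% held TGTTTAC or TGTTTGC, and 0.928% held both. The windows describe letters only, and binding was not measured.

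None of the 9 measured members passed the threshold 24 h after irradiation over the 3 strains. Of the 9 genes, 0 were called by limma in the comparison of the 6 irradiated groups with the 3 sham groups, and 0 had an unadjusted p under 0.05. In the same comparison 14.3% of all genes were called. The random variance test, the method named in the study's methods, also called 0 of the 9. The differences ran from a log2 value of -0.28 for Lpcat1 to 0.03 for Sftpd. The median of the 9 genes was -0.14, 8 of them being lower after irradiation, while the median of all genes was -0.01 and 52.2% of them were lower. Leaving out the 3 arrays with high Tg brought the median of the 9 to -0.04, with 6 lower, and leaving out the 9 arrays with muscle transcripts brought it to -0.03, with 5 lower.

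**Figure D1:**
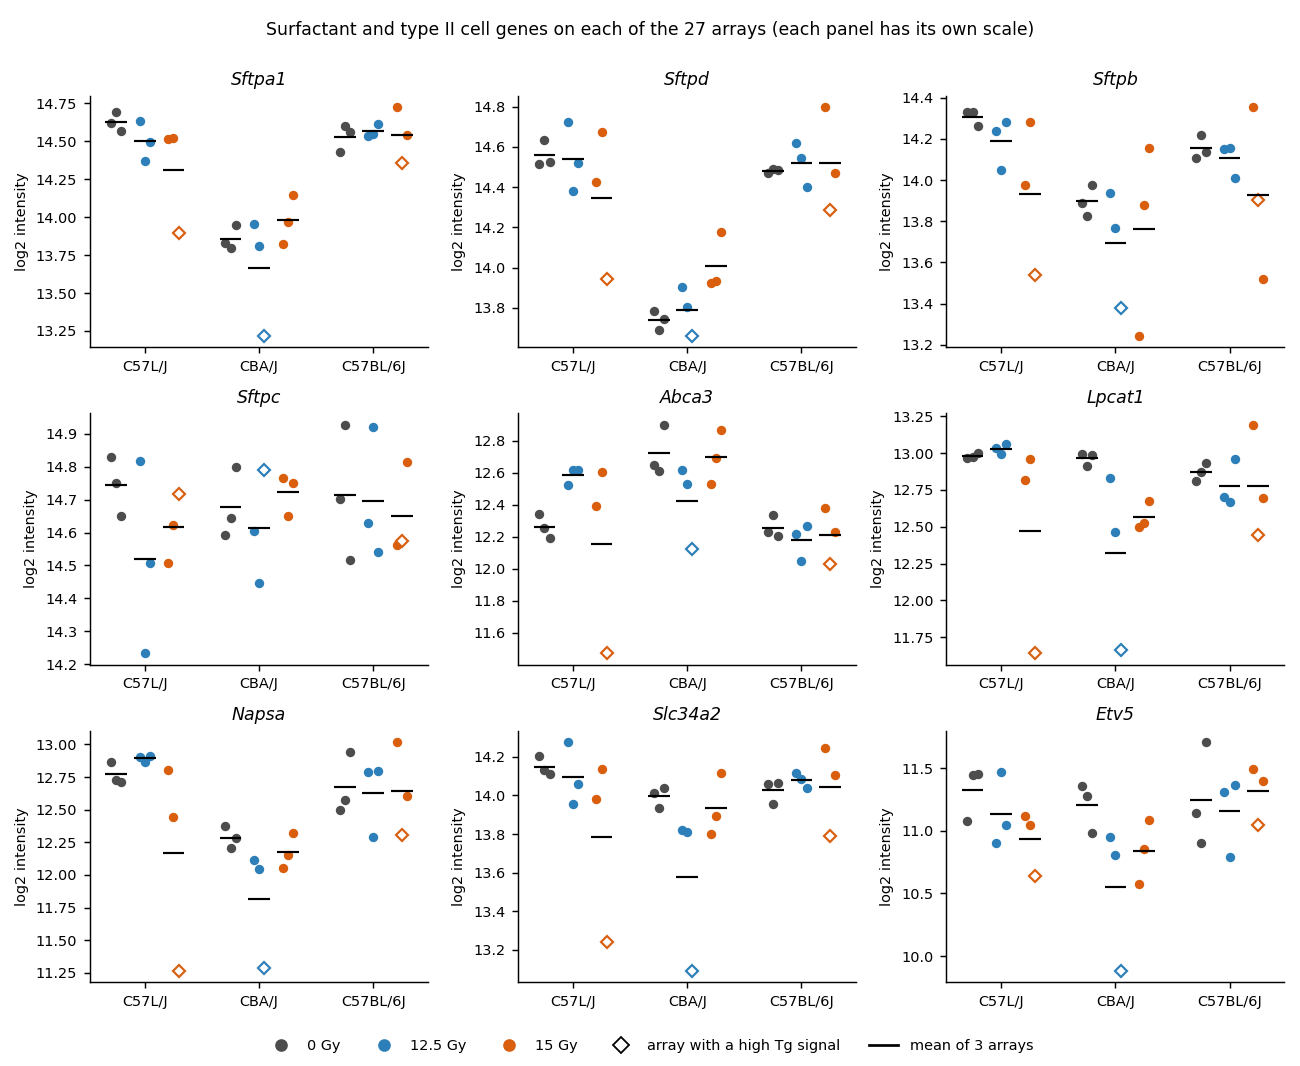
Log2 intensity of the 9 measured genes on each of the 27 arrays, by strain and dose, with a scale of its own in each panel. Each point is 1 mouse, black bars are means of 3 mice, and open diamonds are the 3 arrays with high Tg, which lie at the bottom of their group for most genes but not for Sftpc.

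Sftpc, which encodes the hydrophobic protein that is a defining product of type II cells, was the steadiest member. In C57L/J it read 14.83, 14.75 and 14.65 at 0 Gy, 14.82, 14.23 and 14.51 at 12.5 Gy, and 14.51, 14.62 and 14.72 at 15 Gy. In CBA/J it read 14.59, 14.64 and 14.80 at 0 Gy, 14.60, 14.45 and 14.79 at 12.5 Gy, and 14.77, 14.65 and 14.75 at 15 Gy. In C57BL/6J it read 14.70, 14.93 and 14.52 at 0 Gy, 14.63, 14.92 and 14.54 at 12.5 Gy, and 14.56, 14.58 and 14.81 at 15 Gy. The doses overlapped in every strain. Irradiated minus sham was -0.08 ± 0.07 (SE, 18 against 9 arrays, 95% interval -0.23 to 0.07, limma adjusted p = 0.543). Its SD within groups was 0.167, at percentile 16.4 of all genes. On each array Sftpc read 0.26 to 0.60 below the highest value of that array, with 8 to 27 probe sets above it. Whether saturation narrows its spread was not tested.

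Sftpb, whose product is needed to form lamellar bodies and the surface film, read lower on some irradiated arrays. It was 14.33, 14.33 and 14.26 in sham C57L/J and 13.98, 14.28 and 13.54 at 15 Gy. In C57BL/6J it was 14.11, 14.22 and 14.13 at 0 Gy and 14.35, 13.90 and 13.52 at 15 Gy. In CBA/J it was 13.89, 13.83 and 13.98 at 0 Gy, 13.94, 13.77 and 13.38 at 12.5 Gy, and 13.24, 13.88 and 14.16 at 15 Gy. The values of 13.54 in C57L/J, 13.38 in CBA/J and 13.90 in C57BL/6J came from the arrays with high Tg. That of 13.52 came from another array with muscle transcripts, while 13.24 came from an array with neither. In each strain the doses shown overlapped. The difference over strains was -0.19 ± 0.11 (95% interval -0.41 to 0.04, adjusted p = 0.292). In C57L/J Sftpa1 read 14.62, 14.70 and 14.57 at 0 Gy and 14.52, 14.53 and 13.90 at 15 Gy, so that the 3 irradiated values lay lower. The difference of -0.32 ± 0.21 (adjusted p = 0.736) became -0.11 without the array with high Tg, which gave the lowest value. Over strains the collectins Sftpa1 and Sftpd differed by -0.08 ± 0.09 (95% interval -0.26 to 0.10) and 0.03 ± 0.08 (-0.13 to 0.19). In sham CBA/J mice Sftpd read 13.78, 13.69 and 13.75, and at 15 Gy 13.92, 13.93 and 14.18, so that all 3 values lay higher. That difference of 0.27 ± 0.12 did not pass after adjustment (adjusted p = 0.349).

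Abca3 pumps phospholipid into the lamellar body, and it read higher in C57L/J lungs at 12.5 Gy. The sham values were 12.34, 12.26 and 12.19, and those at 12.5 Gy were 12.53, 12.62 and 12.62, without overlap. In that comparison 21.1% of all genes did not overlap. The difference was 0.33 ± 0.10 (n = 3 mice per dose, 95% interval 0.09 to 0.56, limma adjusted p = 0.254). In the limma fit over the arrays of all groups it was 0.33 ± 0.20 (adjusted p = 0.680). At 15 Gy the C57L/J values were 12.39, 12.61 and 11.47, of which the last came from the array with high Tg. The difference at 15 Gy was -0.10 ± 0.32, and 0.24 without that array. In CBA/J the 15 Gy values of 12.53, 12.69 and 12.87 overlapped the sham values of 12.65, 12.61 and 12.90.

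Lpcat1 encodes the acyltransferase that remodels phosphatidylcholine into the saturated lipid of surfactant, and it read lower in irradiated CBA/J lungs. The sham values were 13.00, 12.91 and 12.98. They were 12.83, 12.47 and 11.66 at 12.5 Gy and 12.50, 12.53 and 12.68 at 15 Gy, so that every irradiated value lay below every sham value. The difference at 15 Gy was -0.40 ± 0.10 (95% interval -0.66 to -0.14, adjusted p = 0.179). The 3 arrays at 15 Gy carried no muscle transcripts but 2 of the 3 sham arrays did, and against the remaining sham array the difference was -0.42 (adjusted p = 0.379). With an intensity trend and a robust prior it passed on all 6 arrays (adjusted p = 0.0420). In the limma fit over the arrays of all groups it was far from passing, at -0.40 ± 0.27 (adjusted p = 0.561). At 12.5 Gy it was -0.64 ± 0.31 (adjusted p = 0.529), and -0.32 without the Tg array. C57L/J values were 12.97, 12.97 and 13.00 at 0 Gy and 12.82, 12.96 and 11.64 at 15 Gy, again with the lowest value on the Tg array, and the difference of -0.51 ± 0.37 became -0.09 without it. In C57BL/6J the values at 15 Gy (13.19, 12.44 and 12.70) spread around those at 0 Gy (12.81, 12.87 and 12.93). Over the strains Lpcat1 differed by -0.28 ± 0.14 (95% interval -0.57 to 0.01, adjusted p = 0.193), by -0.13 without the Tg arrays and by -0.03 without the arrays with muscle transcripts. In a test of 34958 probe sets, the other 4 Lpcat1 probe sets gave -0.37, -0.30, 0.02 and -0.48, and none was called (adjusted p = 0.0648 for the lowest).

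Etv5 encodes an ETS transcription factor that maintains type II cell identity. In CBA/J it read 11.36, 11.28 and 10.99 at 0 Gy, 10.95, 10.81 and 9.88 at 12.5 Gy, and 10.58, 10.86 and 11.08 at 15 Gy. The 12.5 Gy values lay below all sham values, and the 15 Gy values overlapped them. The difference at 12.5 Gy was -0.66 ± 0.32 (adjusted p = 0.529), and -0.33 without the array with high Tg, which gave the value of 9.88. Over strains Etv5 differed by -0.27 ± 0.13 (95% interval -0.54 to 0.00, adjusted p = 0.188), by -0.17 without the Tg arrays and by -0.04 without the arrays with muscle transcripts. In C57BL/6J it read 11.14, 10.90 and 11.71 at 0 Gy and 11.49, 11.05 and 11.40 at 15 Gy, which overlapped. Over strains the other Etv5 probe sets gave -0.04 ± 0.16 and -0.13 ± 0.13 in the limma test of probe sets (adjusted p = 0.905 and 0.5955).

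Napsa, an aspartic protease that processes SP-B, and Slc34a2, the sodium phosphate cotransporter of the type II cell surface, differed by -0.19 ± 0.14 and -0.14 ± 0.10 over strains (adjusted p = 0.436 and 0.403). Napsa at 15 Gy in C57L/J read 12.80, 12.45 and 11.27, against 12.86, 12.73 and 12.71 in sham mice. Its difference there was -0.60 ± 0.41, and -0.15 without the array with high Tg. Slc34a2 read 13.82, 13.81 and 13.09 at 12.5 Gy in CBA/J and 14.01, 13.93 and 14.04 in sham mice. Its 3 irradiated values all lay lower, and the difference of -0.42 ± 0.23 (adjusted p = 0.567) became -0.18 without the Tg array.

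**Figure D2:**
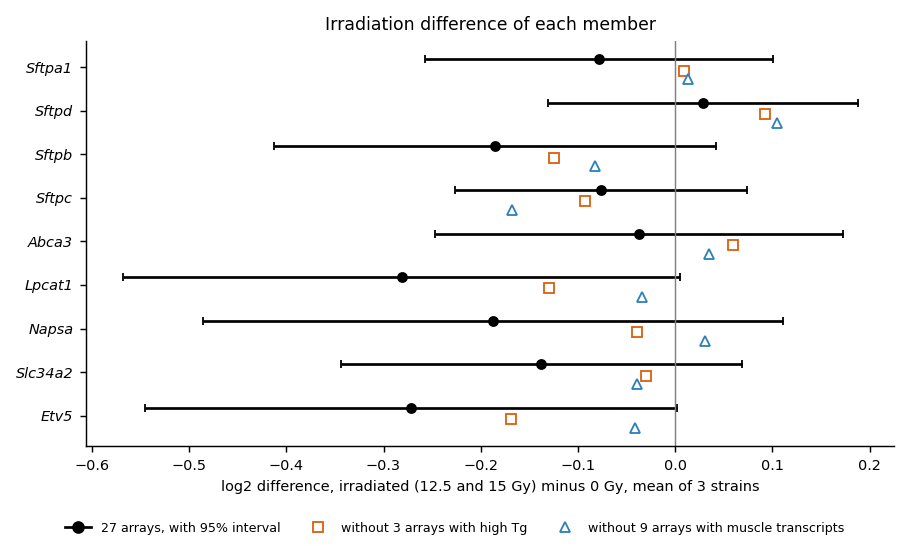
Irradiated minus sham, as the mean of the 3 strains on the log2 scale, for each of the 9 genes: black points with 95% intervals are all 27 arrays, orange squares leave out the 3 arrays with high Tg, and blue triangles leave out the 9 arrays with muscle transcripts. All black intervals include 0, and Lpcat1 moves from -0.28 to -0.13 and -0.03.

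Within strains, 0 of the 9 genes were called by limma in any of the 6 comparisons of a dose with sham, and by the random variance test also 0. In C57L/J 0.517% of all genes were called at 12.5 Gy and 0% at 15 Gy. In C57BL/6J the shares were 0.484% and 0.0660%, and in CBA/J 0.0330% and 1.01%. At an unadjusted p under 0.05 the members passing were Abca3 in C57L/J at 12.5 Gy and Lpcat1 in CBA/J at 15 Gy, while the other 4 comparisons had 0. At 15 Gy in C57L/J, where limma called 0 of all genes, the random variance test also called 0 and 1354 genes had an unadjusted p under 0.05. Values of the doses did not overlap for Abca3 in C57L/J at 12.5 Gy, against 21.1% of all genes, and for Sftpa1 and Lpcat1 at 15 Gy, against 16.6%. Of the 9 genes 4 did not overlap in CBA/J at 12.5 Gy (Napsa, Lpcat1, Slc34a2 and Etv5, all lower), against 18.8% of all genes, and 2 at 15 Gy (Sftpd higher and Lpcat1 lower), against 24.5%. In C57BL/6J 0 of 9 did not overlap at either dose, against 18.1% and 20.8% of all genes. The median differences of the members were -0.36 for C57L/J at 15 Gy and -0.30 for CBA/J at 12.5 Gy, groups that each hold a Tg array. They were between -0.06 and -0.03 in the other 4 comparisons, including C57BL/6J at 15 Gy, which also holds one.

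No member was called between the 2 doses or for a difference between strains in response. At 15 Gy against 12.5 Gy limma called 0 members and 0% of all genes, the random variance test called 0 of each, and 0 members and 809 of all genes had an unadjusted p under 0.05. The 9 differences lay between -0.12 for Sftpb and 0.08 for Etv5. For the interaction of strain and irradiation, which asks whether irradiated minus sham is the same in the 3 strains, limma called 0 members and 0% of all genes. The random variance test called 0, and 0 members and 979 of all genes had an unadjusted p under 0.05. A p that misses the threshold does not show that the strains respond alike.

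The collectin genes were lower in CBA/J than in the other strains. Sftpa1 encodes SP-A, the abundant collectin of surfactant, and over the 9 CBA/J arrays it ran from 13.22 to 14.15 with a median of 13.83. In C57BL/6J it ran from 14.36 to 14.72 with a median of 14.55, and in C57L/J from 13.90 to 14.70 with a median of 14.53. Every CBA/J value lay below every C57BL/6J value, and C57L/J overlapped CBA/J through its array with high Tg alone. The difference was -0.71 ± 0.10 from C57BL/6J (95% interval -0.92 to -0.51, limma adjusted p = 2.9e-05, a ratio of 0.610) and -0.65 ± 0.10 from C57L/J (adjusted p = 9.8e-05, a ratio of 0.639). The second probe set of Sftpa1 differed by -1.25 ± 0.16 (adjusted p = 1.4e-05) and -1.29 ± 0.16 (adjusted p = 9.5e-06).

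Sftpd encodes SP-D, a collectin with roles in defence and in surfactant turnover. It ran from 13.66 to 14.18 in CBA/J (median 13.81), from 14.29 to 14.80 in C57BL/6J (median 14.49) and from 13.94 to 14.73 in C57L/J (median 14.52). CBA/J was again below all C57BL/6J values, and it overlapped C57L/J through the array with high Tg. CBA/J minus C57BL/6J was -0.66 ± 0.09 (95% interval -0.84 to -0.48, adjusted p = 1.8e-05) and CBA/J minus C57L/J was -0.64 ± 0.09 (adjusted p = 3.0e-05). Sham arrays alone gave -0.74 (adjusted p = 0.0476) and -0.82 (adjusted p = 0.0252) for Sftpd, and -0.67 (adjusted p = 0.0905) and -0.77 (adjusted p = 0.0353) for Sftpa1. Without the 3 Tg arrays the differences of CBA/J from C57BL/6J were -0.67 for Sftpa1 and -0.68 for Sftpd. Whether probes of these genes meet sequence differences between the strains was not tested.

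Sftpa1 and Sftpd lie near each other, and no neighbour measured here was called. In the RefSeq gene table the order is Dydc1, Mat1a, Sftpa1, Mbl1 and Sftpd, apart from a pseudogene. Dydc1 differed by -0.71 ± 0.33 between CBA/J and C57BL/6J (adjusted p = 0.180) and by -0.29 ± 0.33 between CBA/J and C57L/J (adjusted p = 0.669), with a wide error. Mbl1, which encodes a mannose-binding collectin, differed by -0.35 ± 0.18 between CBA/J and C57BL/6J (adjusted p = 0.233) and by 0.08 ± 0.18 between CBA/J and C57L/J (adjusted p = 0.851). Mat1a, which encodes a methionine adenosyltransferase, differed by -0.19 ± 0.14 and 0.01 ± 0.14 (adjusted p = 0.408 and 0.984). The mean log2 intensity was 4.75 for Dydc1, 6.47 for Mbl1 and 7.48 for Mat1a, against 14.29 for Sftpa1 and 14.28 for Sftpd. At such low levels the lack of a call says little about the region. These neighbours were chosen after the values of Sftpa1 and Sftpd were seen.

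Napsa was lower in CBA/J and Abca3 higher, and both calls were less secure. Napsa ran from 11.29 to 12.37 in CBA/J (median 12.16), from 12.29 to 13.02 in C57BL/6J (median 12.61) and from 11.27 to 12.91 in C57L/J (median 12.80). The strains overlapped, and CBA/J differed by -0.55 ± 0.17 from C57BL/6J (adjusted p = 0.0295) and by -0.52 ± 0.17 from C57L/J (adjusted p = 0.0481). The first call was lost without any 1 of 7 arrays (CBA/J 0 Gy array 2, 12.5 Gy array 3 and 15 Gy array 1, and C57BL/6J 0 Gy array 3, 12.5 Gy arrays 1 and 3 and 15 Gy array 1), with values from -0.54 to -0.47. The second was lost without any 1 of 21 of the 27 arrays, while without all 3 Tg arrays it was -0.58 (adjusted p = 3.8e-04). The second Napsa probe set differed by -0.69 ± 0.21 from C57BL/6J (adjusted p = 0.0399) and by -0.25 ± 0.21 from C57L/J (adjusted p = 0.566).

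Abca3 ran from 12.13 to 12.90 in CBA/J (median 12.62), from 12.03 to 12.38 in C57BL/6J (median 12.23) and from 11.47 to 12.62 in C57L/J (median 12.39). CBA/J overlapped C57BL/6J, and the difference was 0.40 ± 0.12 (95% interval 0.15 to 0.64, adjusted p = 0.0262). The call was lost without any 1 of 6 arrays (CBA/J 0 Gy array 3, 12.5 Gy arrays 1 and 2 and 15 Gy array 3, and C57BL/6J 12.5 Gy array 2 and 15 Gy array 2), with values from 0.36 to 0.38. The other Abca3 probe sets gave 0.28 and 0.31 (adjusted p = 0.371 and 0.443). Against C57L/J the difference was 0.28 ± 0.12 (adjusted p = 0.145), and 0.21 without the Tg arrays (adjusted p = 0.0421).

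**Figure D3:**
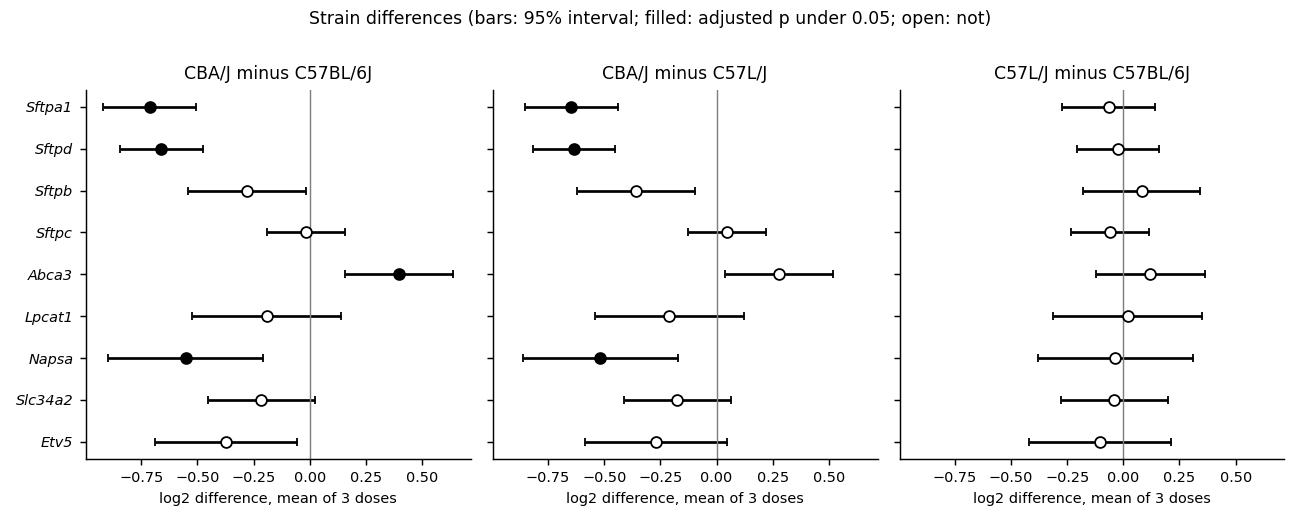
Strain differences of the 9 genes as log2 values averaged over the 3 doses, with 95% intervals, in 1 panel for each pair of strains; filled points have an adjusted p under 0.05. Sftpa1, Sftpd and Napsa are filled on the lower side in both comparisons of CBA/J, Abca3 on the higher side against C57BL/6J, and no point is filled between C57L/J and C57BL/6J.

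Sftpc did not pass in any strain comparison, with -0.02 ± 0.08 between CBA/J and C57BL/6J (95% interval -0.19 to 0.16, adjusted p = 0.934) and 0.05 ± 0.08 between CBA/J and C57L/J. Its second probe set, with a mean log2 of only 6.32, gave 0.39 ± 0.20 and 0.60 ± 0.20 there (limma adjusted p = 0.257 and 0.0697). Sftpb was -0.28 ± 0.13 (adjusted p = 0.162) and -0.36 ± 0.13 (adjusted p = 0.0735) in these comparisons. The latter became a call at -0.43 without C57L/J 15 Gy array 3 or CBA/J 15 Gy array 3 (adjusted p = 0.0241 and 0.0310). With all arrays it was called under a filter on low values, an intensity trend with a robust prior, or array weights (limma adjusted p = 0.0425, 0.0459 and 0.0162). Etv5 was -0.37 ± 0.15 and -0.27 ± 0.15, Slc34a2 -0.22 ± 0.11 and -0.18 ± 0.11, and Lpcat1 -0.19 ± 0.16 and -0.21 ± 0.16, none of them called. Without the Tg arrays Lpcat1 was -0.24 against C57L/J and became a call (limma adjusted p = 0.0453). In all, 4 of 9 members were called between CBA/J and C57BL/6J, against 13.3% of all genes, and 3 of 9 between CBA/J and C57L/J, against 11.2%. Between C57L/J and C57BL/6J limma called 0 of 9, against 5.34% of all genes, the random variance test 0, and 0 had an unadjusted p under 0.05. The 9 differences there lay between -0.11 for Etv5 and 0.12 for Abca3. Over 9 arrays against 9, 2 members did not overlap between CBA/J and C57BL/6J, against 2.79% of all genes. Between CBA/J and C57L/J 0 members did not overlap, against 2.31% of all genes, and between C57L/J and C57BL/6J 0, against 1.11%. The median of the members was -0.28 for CBA/J minus C57BL/6J and -0.27 for CBA/J minus C57L/J, with medians of all genes of -0.01 and 0.01. Both comparisons use the same CBA/J arrays.

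**Figure D4:**
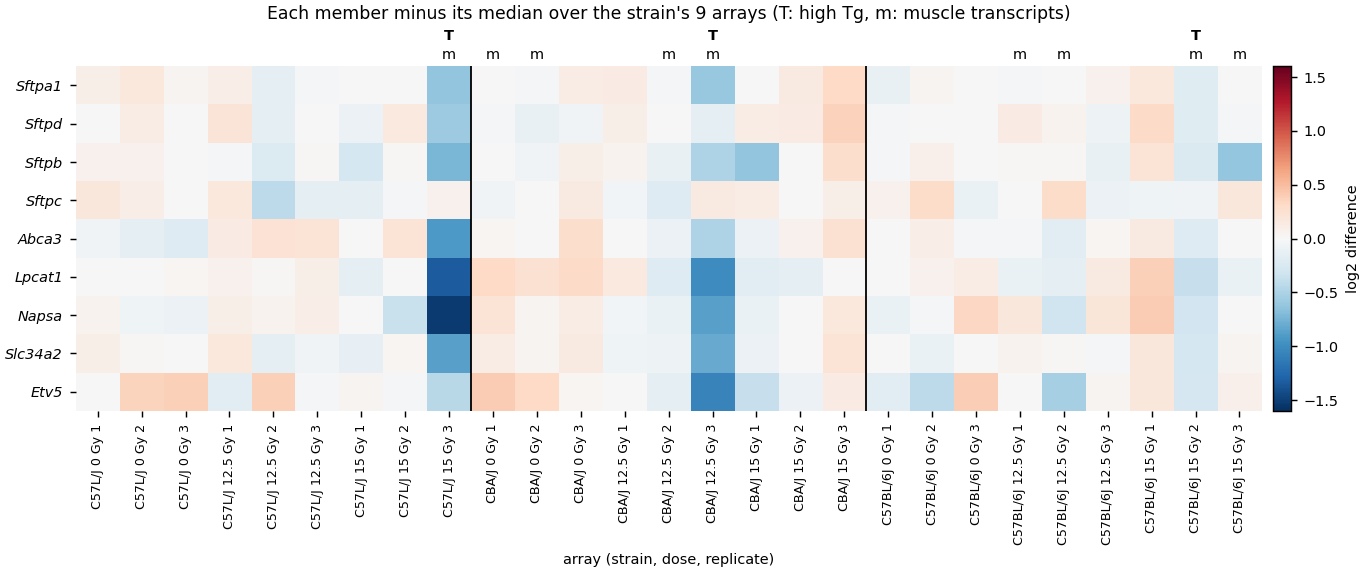
Each gene's log2 intensity minus its median over the 9 arrays of the strain, for every array; T marks the 3 arrays with high Tg and m the 9 with muscle transcripts. The columns under T are blue for most genes, down to -1.54 for Napsa on array 3 of C57L/J at 15 Gy, while Sftpc stays close to 0.

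The arrays with high Tg carried low values of most members in all 3 strains, and low values of other lung cell markers too. On array 3 of C57L/J at 15 Gy, 8 of the 9 genes had their lowest value of the strain, and the median deviation of the 9 from the strain's medians was -0.73. On array 3 of CBA/J at 12.5 Gy 7 of 9 were lowest and the median deviation was -0.61. On array 2 of C57BL/6J at 15 Gy 5 of 9 were lowest, with a median of -0.23. Sftpc was not the lowest value on any of these 3 arrays, and its deviations from the strain medians lay between -0.05 and 0.14. Against the median array, the mean of 10 type I cell markers stood at -0.86, -0.57 and -0.40 on these 3 arrays in the same order, and the mean of 10 endothelial markers at -0.94, -0.59 and -0.79. The mean of 8 club cell markers stood at -0.12, 0.04 and 0.17. The share of tissue other than lung parenchyma in these samples was not measured.

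Apart from Sftpc, the members varied together within groups. As deviations from the group means over 27 arrays, the 28 pairs without Sftpc had Pearson r from 0.356 (Sftpd and Etv5) to 0.941 (Sftpa1 and Slc34a2), with a median of 0.759. These points share the arrays, the scaling and the 3 Tg arrays, and the values describe the arrays only. Without the Tg arrays the median over 24 arrays was 0.460, the range -0.047 to 0.831, and 26 of 28 pairs were above 0. The 8 pairs with Sftpc ran from -0.74 (Etv5) to 0.071 (Sftpd) over 27 arrays and from -0.806 to 0.342 over 24. Sftpc and Etv5 were thus opposed in both sets. The spread within groups was widest for Napsa (SD 0.359) and Lpcat1 (0.344).

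**Figure D5:**
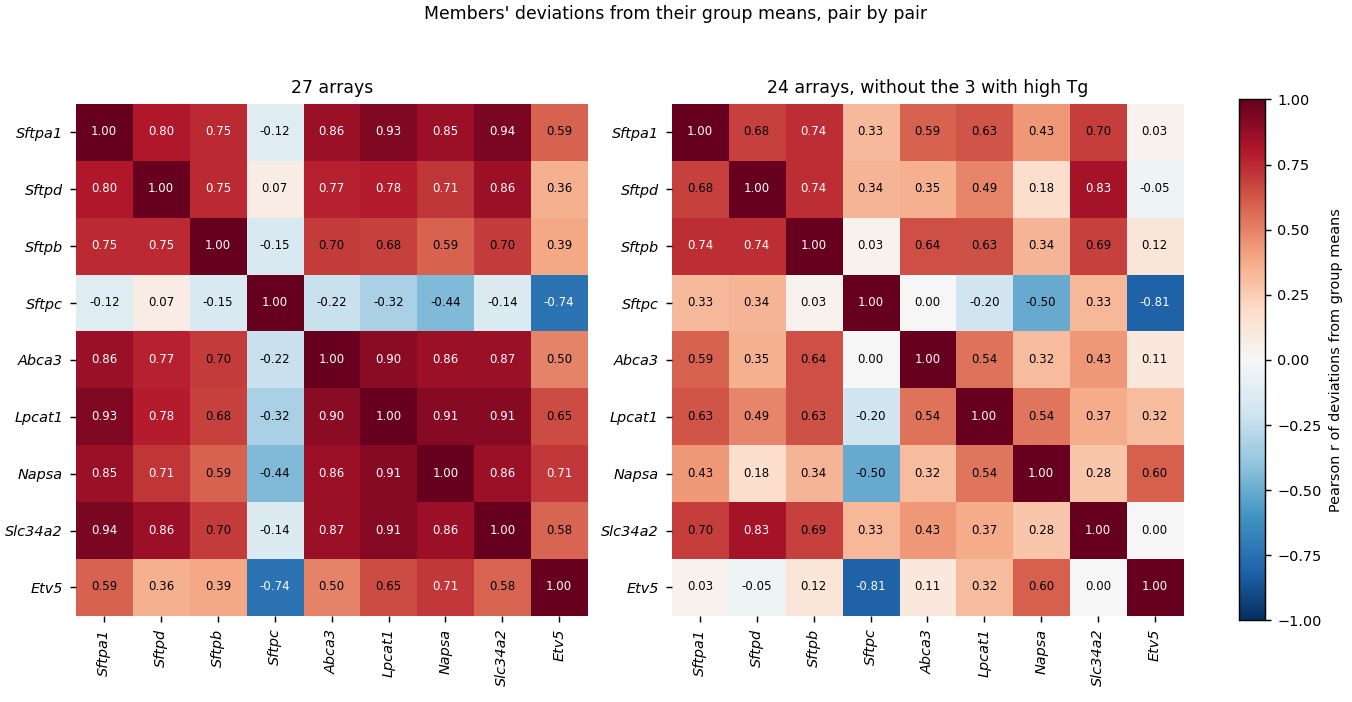
Pearson r between pairs of genes of their deviations from the group means, over all 27 arrays (left) and over the 24 arrays without high Tg (right). On the left the pairs without Sftpc are all above 0, and on the right they are weaker, with a median of 0.460 against 0.759, while Sftpc stays opposed to Etv5.

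The genes whose pattern was most like the mean of the measured members were sought among 11832 genes with a mean log2 intensity of at least 7. The 8 with the highest Pearson r over 27 arrays were Pla2g1b (0.921), Gucy1b1 (0.917), Dram1 (0.915), Fgfr2 (0.908), Hc (0.890), Phldb2 (0.890), Rnase4 (0.889) and Sec14l4 (0.887). Pla2g1b encodes a secreted phospholipase A2, Fgfr2 a receptor for fibroblast growth factors, and Hc complement component C5. Dram1, Fgfr2 and Hc were also on the list of other type II cell genes. The 3 Tg arrays are among the 27 points, and these r values mix differences between groups with variation within them. As deviations from group means the ranking changed. Cxcl15, also on that list, was then highest (0.964), with Hc at 0.955, Pla2g1b at 0.902 and Gucy1b1 at 0.884.

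Of the other type II cell genes, Hc fell after irradiation. Of 16 measured, 1 was called lower and 0 higher, against 14.3% of all genes called. Hc differed by -0.61 ± 0.12 (adjusted p = 0.00153). The list's median was -0.10, and 0.01 without the Tg arrays, when 1 gene was called in each direction. Of 22 genes of surfactant lipid synthesis, 1 rose and 2 fell, a share near the 14.3% of all genes called. The list's median was 0.05, and -0.10 without the arrays with muscle transcripts. Scd1, a desaturase of fatty acids, rose by 0.26 ± 0.08, while Elovl1, an elongase of very long fatty acids, fell by 0.36 ± 0.07 and Pcyt1a, the rate-limiting enzyme of phosphatidylcholine synthesis, fell by 0.22 ± 0.07 (adjusted p = 0.0250, 0.00176 and 0.0304). Elovl1 stayed called without the Tg arrays and without the arrays with muscle transcripts, whereas Scd1 and Pcyt1a were not called in either setting (adjusted p = 0.0523 and 0.0576 without the Tg arrays). Of 16 transcription factors of lung epithelium and of 12 genes of secretion and lamellar body traffic, 0 were called by limma or by the random variance test, and 2 and 1 had an unadjusted p under 0.05. Of 10 genes listed for surfactant clearance and alveolar macrophages, 5 were higher and 5 lower, and 1 was called. This was Car4, a membrane carbonic anhydrase, which fell by 0.91 ± 0.12 (adjusted p = 3.7e-05). Which lung cells carried its signal was not measured.

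Markers of other lung cells differed in the same comparison, in which 14.3% of all genes were called. Of 10 type I cell markers and 8 club cell markers 0 were called by limma or by the random variance test, with medians of -0.13 and -0.07, and 1 and 2 had an unadjusted p under 0.05. Without the arrays with muscle transcripts the type I median was 0.07 and 1 marker was called higher. Of 8 ciliated cell markers 1 was called lower, Tppp3, by -0.26 ± 0.08, a call lost without the Tg arrays (adjusted p = 0.0681) and without the arrays with muscle transcripts (adjusted p = 0.168). Of 10 endothelial markers 6 fell, among them Aplnr, the apelin receptor (-1.77 ± 0.12), Emcn (-0.59 ± 0.10) and Ednrb (-0.49 ± 0.12). Aplnr, Emcn and Ednrb differed by -1.58, -0.41 and -0.22 without the arrays with muscle transcripts, where Ednrb was no longer called. Without the arrays with muscle transcripts 2 endothelial markers were called lower and 1 higher. Of 7 B cell markers 6 fell, led by Cd79b (-1.69 ± 0.13), Cd79a (-2.04 ± 0.18) and Blk (-1.63 ± 0.16), and of 7 T cell markers 6 fell, led by Il7r (-1.32 ± 0.13), Ccr7 (-1.42 ± 0.20) and Cd3d (-1.19 ± 0.21). Of 9 fibroblast markers and of 10 skeletal muscle markers 0 were called by either test, and 1 and 0 had an unadjusted p under 0.05. The muscle markers had a median of 1.37. The fall in lymphocyte markers stands beside the surfactant genes as a measured change of the same arrays, and whether it shifts the members' values was not tested.

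Between strains, the lists of type II cell, lamellar body, transcription factor and lipid genes held from 12 to 22 measured genes each, and the counts called are to be read beside the share of all genes called, 13.3% for CBA/J minus C57BL/6J and 11.2% for CBA/J minus C57L/J. Of the 16 other type II cell genes, 3 were lower than in C57BL/6J and 3 lower than in C57L/J, with 0 higher. Chil1, a chitinase-like protein, differed by -1.85 ± 0.17 and -2.03 ± 0.17, and Hc by -0.54 ± 0.14 and -0.53 ± 0.14. The third gene was Ppp1r14c against C57BL/6J (-0.38 ± 0.12) and Egfl6 against C57L/J (-0.94 ± 0.30, adjusted p = 0.0496). In lamellar body traffic, with 2 of 12 genes called against C57BL/6J, Hps1, a subunit of a complex that forms lysosome-related organelles, differed by -1.61 ± 0.12 in both comparisons. P2ry2, the nucleotide receptor that triggers surfactant secretion, was higher by 1.19 ± 0.32 against C57BL/6J (adjusted p = 0.0145). Of 16 transcription factors 1 was called against C57BL/6J, Cebpa, a regulator of type II cells, by -0.33 ± 0.09 (adjusted p = 0.0167). Of the 22 lipid synthesis genes 2 were higher and 2 lower than in C57BL/6J, with Cept1 at 0.23 ± 0.07 and Elovl1 at -0.34 ± 0.08. Without the arrays with muscle transcripts Chil1, Hc, Hps1 and Elovl1 stayed called in both comparisons, while against C57BL/6J the calls of P2ry2 (0.87, adjusted p = 0.370), Cebpa (-0.29, adjusted p = 0.103), Cept1 (0.30, adjusted p = 0.229) and Ppp1r14c (-0.38, adjusted p = 0.102) were lost. Egfl6 was lost in the same way against C57L/J (adjusted p = 0.129), and without the Tg arrays (adjusted p = 0.0662). Of 8 ciliated cell markers 4 were lower than in C57BL/6J with the full set of arrays and 1 without the arrays with muscle transcripts.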

How the data were processed

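Lung RNA of 27 mice was hybridised to Affymetrix Mouse Genome arrays, and linear intensities of probe sets were deposited. The submitters' processing notes name Affymetrix Expression Console 1.1, without the way probes were summarised. The mean after trimming 2% was 500 on every array, so the authors' scaling was kept and no further normalization was applied. Median intensities ran from 127.6 to 167.0, and precision is limited by the number of arrays. Groups were taken from the strain and dose labels. Values were floored at 1 and taken to log2.

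Of 45101 probe sets, 34958 carry 1 gene symbol, 34754 of them matched to a current symbol, and 932 with several and 9211 with none were left out. The brightest probe set by mean stood for a gene. Comparisons used limma 3.58.1 (lmFit and eBayes, R 4.3.3): within strains on the arrays of both groups, and otherwise in 1 fit of 9 group means over 27 arrays. Limma p-values test a difference against the spread between mice within groups, with each gene's variance moderated by those of all genes. Errors are standard errors unless named, with 95% intervals. Alternatives included the random variance test and the unadjusted limit of 0.01 of the study's methods. The others were quantile normalization, median-centring, a floor of 32, other choices of probe set, a filter on low values, a robust prior, array weights, 1 fit over all arrays, sham arrays alone, a replicate block, and arrays left out.

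The members, gene lists and tests were chosen with earlier results of these data known. All members were named, with Cdkn1a as a check, and up to 3 genes of each list with the lowest adjusted p under 0.05 after irradiation. The 8 genes most like the members' mean were also named, with the gene most like it within groups. List genes named for strain differences, the neighbours of Sftpa1, and the Tg arrays and their removal were chosen after seeing the data. List genes without a probe set of their own were left out, and some genes are not reported here. Replicate numbers were not taken to pair the mice, since for no 2 doses of a strain were all correlations of same-numbered arrays over 0.1, although all 3 were above 0 between 0 and 12.5 Gy in C57L/J and CBA/J. Scripts were tested on simulated data. Figures were drawn with matplotlib 3.10.9 in Python 3.11.15.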

Additional observations from a re-analysis of the deposited data

How the results depend on the processing

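The counts and called differences were recomputed under 17 other settings and with each of the 27 arrays left out in turn, and 0 values reversed. With an intensity trend and a robust prior 1 member was called for dose within strain, Lpcat1 in CBA/J at 15 Gy (adjusted p = 0.0420), in place of 0. The sham arrays alone gave 3 strain calls in place of 7. The other settings gave 5 to 9 strain calls, with 9 when the 3 arrays with high Tg were left out, a setting chosen after seeing the data, and 7 without the arrays with muscle transcripts. Sftpd and Sftpa1 stayed called in CBA/J against C57L/J under all 41 settings that give a value, Sftpd likewise against C57BL/6J, and Sftpa1 against C57BL/6J in 40, the exception being sham arrays alone. The Abca3 call was lost with the mean of probe sets (0.33, adjusted p = 0.102), the most variable probe set (0.31) and sham arrays alone (0.46). The Napsa calls were lost with median-centred arrays (-0.52 and -0.51) and with sham arrays alone (-0.39 and -0.48), and that against C57L/J also with the other choices of probe set. The cause was not tested. Leaving out 1 array moved CBA/J minus C57BL/6J between -0.76 and -0.64 for Sftpa1, -0.70 and -0.61 for Sftpd, 0.36 and 0.45 for Abca3, and -0.61 and -0.47 for Napsa.

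Replicate numbers were fitted as a replicate block within strain although nothing in the labels says what a shared number, or the CBA/J code that goes with it, stands for. The strain calls were then 6 in place of 7, with Napsa in CBA/J against C57L/J at an adjusted p of 0.0611, and the dose calls stayed at 0. The correlation of same-numbered arrays was over 0.1 in every pair for 0 of 9 pairs of doses, the highest of the lowest values being 0.0839 for CBA/J at 0 and 12.5 Gy.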
